A study of Oryza sativa Indica Group with 12 samples.

Results

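Of 57258 probe sets measured in rice roots, 145 (0.253%) fell in BR-IRGA 409 under excess Fe. Their mean was at least 3-fold lower, as deposited, with no overlap between the arrays. Of the 145, 120, for 115 genes or unassigned probe sets, carried no name of the Fe uptake, peroxidase and dirigent families. Among the 120, 22 had no listed gene, so their family is unknown. These 120 are the members described here. They were chosen by a rule on the BR-IRGA 409 values alone: the mean of the 3 control arrays exceeded the mean of the 3 excess Fe arrays by at least 1.585 on the log2 scale, and each excess Fe array lay below each control array. The 25 probe sets left out belong to the YSL, NAS, NAAT, IRT, NRAMP1, TOM1, IRO3, IMA1, MIR, peroxidase and dirigent families. Since the BR-IRGA 409 values selected the members, they are given as a description with no test, and EPAGRI 108 supplies the measurement that the rule did not use.

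Each of 4 groups of indica rice (Oryza sativa) was represented by 3 Affymetrix rice arrays hybridised with root RNA, 12 in all. The cultivar BR-IRGA 409, labelled susceptible to Fe toxicity, and EPAGRI 108, labelled tolerant, were grown in hydroponics and received FeSO4 at 6.5 mg/L Fe (control) or 500 mg/L Fe (excess Fe) for 3 days. Sodium sulfate was added to the control solution to give both treatments the same sulfur concentration. Sodium therefore differed between the treatments along with Fe. Each cultivar is 1 genotype, so what differs between them cannot be told apart from other features of these 2 genotypes. Values are log2 expression values, 1 for each probe set and array, and a difference of 1 is 2-fold. Whole roots were sampled, and fewer cells of a type and less RNA per cell cannot be told apart.

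Ferrous Fe becomes abundant in flooded soils, and roots that take up too much of it are exposed to oxidative damage because Fe catalyses the formation of reactive oxygen species. Roots also take up nutrients, remodel and lignify their cell walls, turn proteins over and carry non-symbiotic hemoglobins, small proteins known for binding oxygen and for removing nitric oxide. Genes of all these kinds are among the members. Their roles are given below as background from the descriptions in the study's tables or from general knowledge.

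The arrays carried root transcripts at high levels. The silicon influx transporter gene Lsi1 stood between 13.35 and 13.78 on all 12 arrays, and 4 of a list of 5 root genes were matched, all but RCc3. Other root genes of the list had lower readings under excess Fe, in BR-IRGA 409 and in part in EPAGRI 108. In BR-IRGA 409 the silicon efflux transporter gene Lsi2 stood at 12.55, 12.88 and 12.87 in control and at 11.88, 11.98 and 11.93 under excess Fe. The first of 3 probe sets of the Casparian strip gene CASP1 stood at 9.84 to 10.20 and at 8.87 to 9.0, and the sodium transporter gene HKT1;5 at 7.41 to 8.55 and at 7.0 to 7.48, the last with overlap. In EPAGRI 108, Lsi2 stood at 12.63, 12.98 and 12.83 in control and at 12.49, 12.33 and 12.49 under excess Fe. There the first CASP1 probe set stood at 9.68 to 10.42 and at 9.15 to 9.58, while its other probe sets and HKT1;5 overlapped. Transcripts typical of green tissue were present too, with 2 of 4 listed genes matched: a probe set of the chlorophyll a/b binding protein gene CAB2R stood at 11.45, 12.16 and 12.59 on the BR-IRGA 409 control arrays, at 11.20, 11.66 and 11.23 under excess Fe, and between 9.25 and 10.75 in EPAGRI 108. The part of these transcripts in the results below was not tested.

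By the array labels, the direction of the EPAGRI 108 response is opposite to the one given in the study's own tables, and these arrays alone do not settle which holds. The study also ran RT-qPCR on selected genes and reports that most matched its array results. It excepts some genes with opposite changes in the cultivars, which did not fall where its arrays had them lower. All EPAGRI 108 values follow the labels, and with the labels exchanged every sign given for EPAGRI 108 would turn and its control and excess Fe levels would trade places. EPAGRI 108 excess Fe replicate 1 stood apart for these genes. It was the highest of its 3 arrays in 93 of 120 members, against 35.6% of all probe sets. Its median difference from control replicate 1 was -0.25 over the members, while the same difference was -1.22 for replicate 2 and -1.37 for replicate 3. The sign was shared, since 106, 108 and 108 of the 120 members were lower on the excess Fe array than on the control array of the same number. Over all probe sets the medians of these differences were 0.0057, -0.030 and -0.023, and the shares that were lower were not computed. The labels state no pairing of these arrays. In BR-IRGA 409 the 3 medians over the members were -2.01, -2.13 and -2.08. The main counts of members that rest on the EPAGRI 108 excess Fe arrays are therefore also given without replicate 1, a setting chosen after the values were seen except for the calls and the count without overlap. Shares over all probe sets were not computed for that setting. With an array fewer, groups separate more easily, so a rise in the counts without overlap has no background to be read against.

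The falls in BR-IRGA 409 ranged from 1.60 to 6.59 on the log2 scale, with a median of 1.96 (3.89-fold). In 57 members the fall was at least 2 (4-fold), in 15 at least 3 (8-fold) and in 5 at least 4 (16-fold). Members were bright in control roots: their median level was 8.80, against 5.19 for all probe sets, and 6.58 under excess Fe. The least changed members were the undescribed genes LOC4348268 and LOC4341912, each with a fall of 1.60, and just outside lay the genes OsCASPL1C1 and AP25, each with 1.57. Some probe sets of the array match no rice sequence, and the brightest of them read 4.51 to 5.01 on the 12 arrays. In 17 members all 3 BR-IRGA 409 excess Fe arrays were no brighter than that. Their fold is a bound, computed by raising each of these arrays to the reading of the brightest non-rice probe set. The bounds ran from 1.33 to 20.8, and in 10 of the 17 the bound was under 3-fold.

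In EPAGRI 108 most members were lower under excess Fe as well. The sizes in the 2 cultivars are not compared by a test, since the rule set those in BR-IRGA 409. The 3 excess Fe arrays lay below the 3 control arrays in 77 of 120 members (64.2%), while 7.07% of all probe sets did so. In the opposite direction 4 members did not overlap (3.33%), against 6.34% of all probe sets. The median EPAGRI 108 difference was -0.95 over the members and -0.01 over all probe sets, and 109 of 120 members had a lower mean under excess Fe, against 54% of all probe sets. With excess Fe replicate 1 left out, 93 members lay below all control arrays, 4 above them, and 109 had a lower mean. No share over all probe sets was computed for this setting, so 93 cannot be read against 7.07%. At an adjusted p under 0.05 and at least 3-fold, limma called 10 members lower (8.33%), against 0.0227% (13) of all probe sets, and 0 members higher, against 0.283%. At an unadjusted p under 0.05, 87 members were lower and 2 higher, against 5.29% and 5.04% of all probe sets, and without excess Fe replicate 1 these were 91 and 2. The 10 calls lay close to the threshold, with adjusted p from 0.0355 to 0.0478. With the replicate number of each cultivar as a block none of them was called (adjusted p = 0.0712 to 0.0729, limma), and with the EPAGRI 108 arrays alone none was either (adjusted p = 0.234 to 0.244, limma). Under the block the lowest adjusted p of any member was 0.0712 (limma), so no member's adjusted p under 0.05 given below held under it. Without EPAGRI 108 excess Fe replicate 1, 24 members were called, without EPAGRI 108 control replicate 1, 18, and without any 1 of the other 10 arrays, 0.

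**Figure D1:**
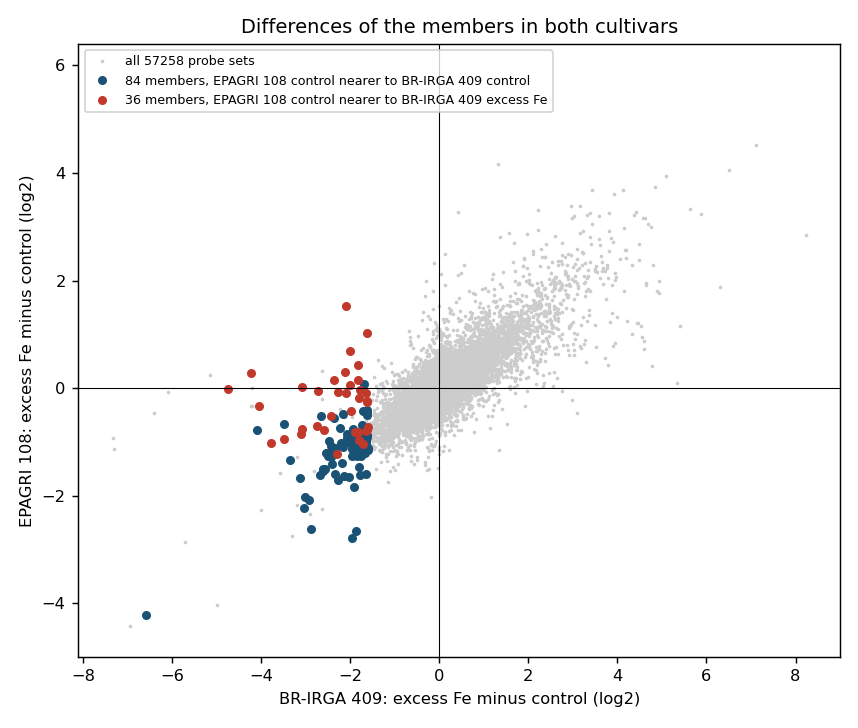
Difference between excess Fe and control in BR-IRGA 409 (x axis, log2) and EPAGRI 108 (y axis, log2) for all 57258 probe sets (grey) and the 120 members (coloured by whether the EPAGRI 108 control level was nearer to the BR-IRGA 409 control or excess Fe level). The x position of the members was fixed by the rule, and 109 of the 120 lie below 0 on the y axis.

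The size of the fall in BR-IRGA 409 said little about the size of the difference in EPAGRI 108. Across the 120 members Pearson's r between the 2 differences was 0.25 and Spearman's rho 0.17, over a range that the rule had narrowed, while r was 0.75 across all 57258 probe sets. The 2 contrasts share no arrays, but genes are not independent replicates. The members also differed in their level in EPAGRI 108 control roots. In 84 members the EPAGRI 108 control mean was nearer to that of BR-IRGA 409 control, and in 36 it was nearer to the BR-IRGA 409 excess Fe mean. In the 84, the EPAGRI 108 excess Fe arrays lay below the controls in 68, all 10 calls were among them, and the median difference was -1.09. In the 36, they lay below in 9 (7.07% of all probe sets did so), and the median difference was -0.26. Without excess Fe replicate 1 they lay below in 79 of the 84 and in 14 of the 36. This division uses the EPAGRI 108 control arrays that also enter the difference, and a low control level leaves less room for a fall, so it is a description and was not tested. In 59 members (49.2%) all EPAGRI 108 control arrays lay below all BR-IRGA 409 control arrays, against 7.69% of all probe sets, and in 4 they lay above, against 6.97%. With the EPAGRI 108 labels exchanged, the control mean would be nearer to BR-IRGA 409 control in 18 members and nearer to BR-IRGA 409 excess Fe in 102, and its arrays would all lie below BR-IRGA 409 control in 101. Of the 77 members without overlap, which would then be higher under excess Fe, 10 would be among the 18 and 67 among the 102. The rule favours genes that are high on the BR-IRGA 409 control arrays, so these counts are not independent of it.

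**Figure D2:**
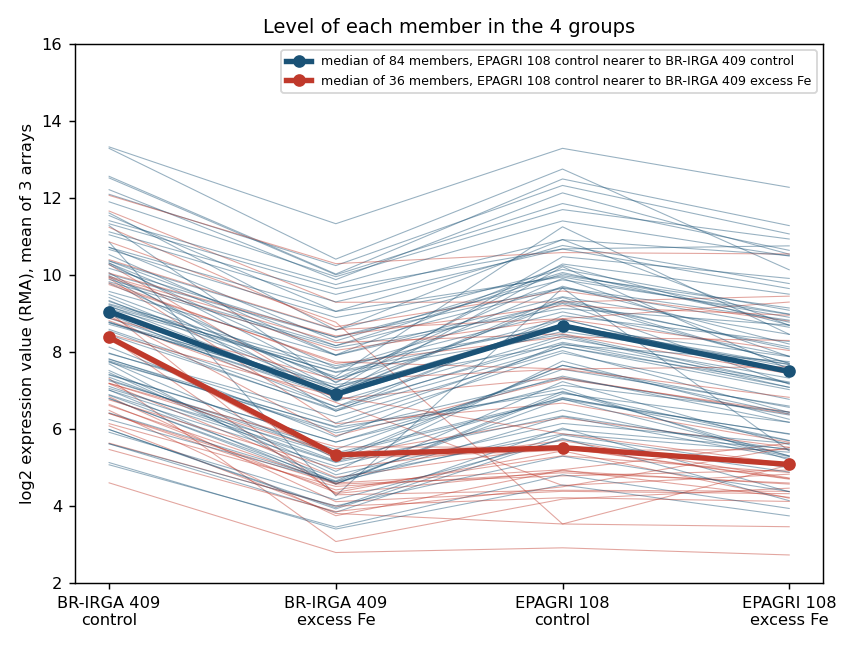
Mean log2 expression value of each of the 120 members in the 4 groups (thin lines, mean of 3 arrays) and the median of each set (thick lines). Blue marks the 84 members whose EPAGRI 108 control level was nearer to BR-IRGA 409 control, red the 36 whose level was nearer to BR-IRGA 409 excess Fe. The median EPAGRI 108 difference of the 36 was -0.26.

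Among transporters and channels there were 11 members for 9 genes, with falls from 1.61 to 4.06 and a median EPAGRI 108 difference of -0.98. The sulfate transporter gene LOC_Os03g09980, whose product carries sulfate into the root as a source of sulfur, stood at 11.51, 11.77 and 11.56 on the BR-IRGA 409 control arrays and at 8.61, 8.77 and 8.34 under excess Fe, a fall of 3.04 (8.22-fold). In EPAGRI 108 it stood at 10.58, 11.09 and 11.10 in control and at 10.01, 8.07 and 8.01 under excess Fe. The groups did not overlap in either cultivar, and excess Fe replicate 1 was the highest of its group. It was one of the 10 called members, at -2.23 (SE 0.41, limma adjusted p = 0.0392), with adjusted p = 0.0712 under the block of each cultivar. Its neighbour by locus number, LOC_Os03g09970, is described as a sulfate transporter too and behaved otherwise. It went from 11.33 ± 0.50 to 9.65 ± 0.31 (SD, n = 3) in BR-IRGA 409 and from 10.68 ± 0.04 to 10.76 ± 0.27 in EPAGRI 108, where the arrays overlapped (difference 0.08, SE 0.23, limma adjusted p = 0.989).

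LOC_Os01g65110, a proton-dependent oligopeptide transporter family gene, is represented by 2 probe sets that differ in brightness. The dimmer stood at 7.64, 8.50 and 9.02 in BR-IRGA 409 control and at 4.28, 4.29 and 4.43 under excess Fe, at least 13.2-fold lower. For EPAGRI 108 the values were 4.83, 4.96 and 4.96 in control and 4.64, 4.51 and 4.58 under excess Fe. On this probe set the EPAGRI 108 control arrays were thus far below those of BR-IRGA 409. The brighter probe set went from 11.24 ± 0.20 to 8.66 ± 0.23 (SD, n = 3) in BR-IRGA 409, a fall of 2.58 (5.98-fold). In EPAGRI 108 it stood at 9.59 ± 0.69 in control and 8.81 ± 0.21 under excess Fe, well above the non-rice probe sets. Its EPAGRI 108 control mean was lower than that of BR-IRGA 409 by 1.65, and its EPAGRI 108 arrays overlapped (-0.78, SE 0.27, limma adjusted p = 0.267). The major facilitator gene LOC_Os11g05390 was also lower in EPAGRI 108 control than in BR-IRGA 409 control. It stood at 9.84, 9.96 and 9.94 in BR-IRGA 409 control, at 6.61, 5.88 and 5.95 under excess Fe, at 6.67, 6.71 and 6.66 in EPAGRI 108 control and at 6.35, 5.26 and 5.38 under excess Fe. Its EPAGRI 108 arrays did not overlap, and the difference of -1.02 (SE 0.25) had a limma adjusted p of 0.0832.

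The other transporter members had falls between 1.61 and 2.15. The potassium transporter gene HAK4 went from 6.43 ± 0.30 to 4.64 ± 0.38 (SD, n = 3) in BR-IRGA 409 and from 6.78 ± 0.61 to 5.31 ± 0.17 in EPAGRI 108, where the adjusted p of 0.0392 (limma) came with a change under 3-fold. The amino acid transporter gene LOC_Os06g12320 differed by -1.85 in EPAGRI 108 (SE 0.45, limma adjusted p = 0.0762). A gene listed as NRAMP4, of the family that carries divalent metal ions, had 2 members with falls of 2.15 and 1.61. In EPAGRI 108 the first overlapped (-0.47, SE 0.34) and the second did not (-1.14, SE 0.21, limma adjusted p = 0.0392). The chloride channel family gene LOC_Os12g25200 and the urea transporter gene DUR3 completed the class, with EPAGRI 108 differences of -0.98 and -0.44.

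**Figure D3:**
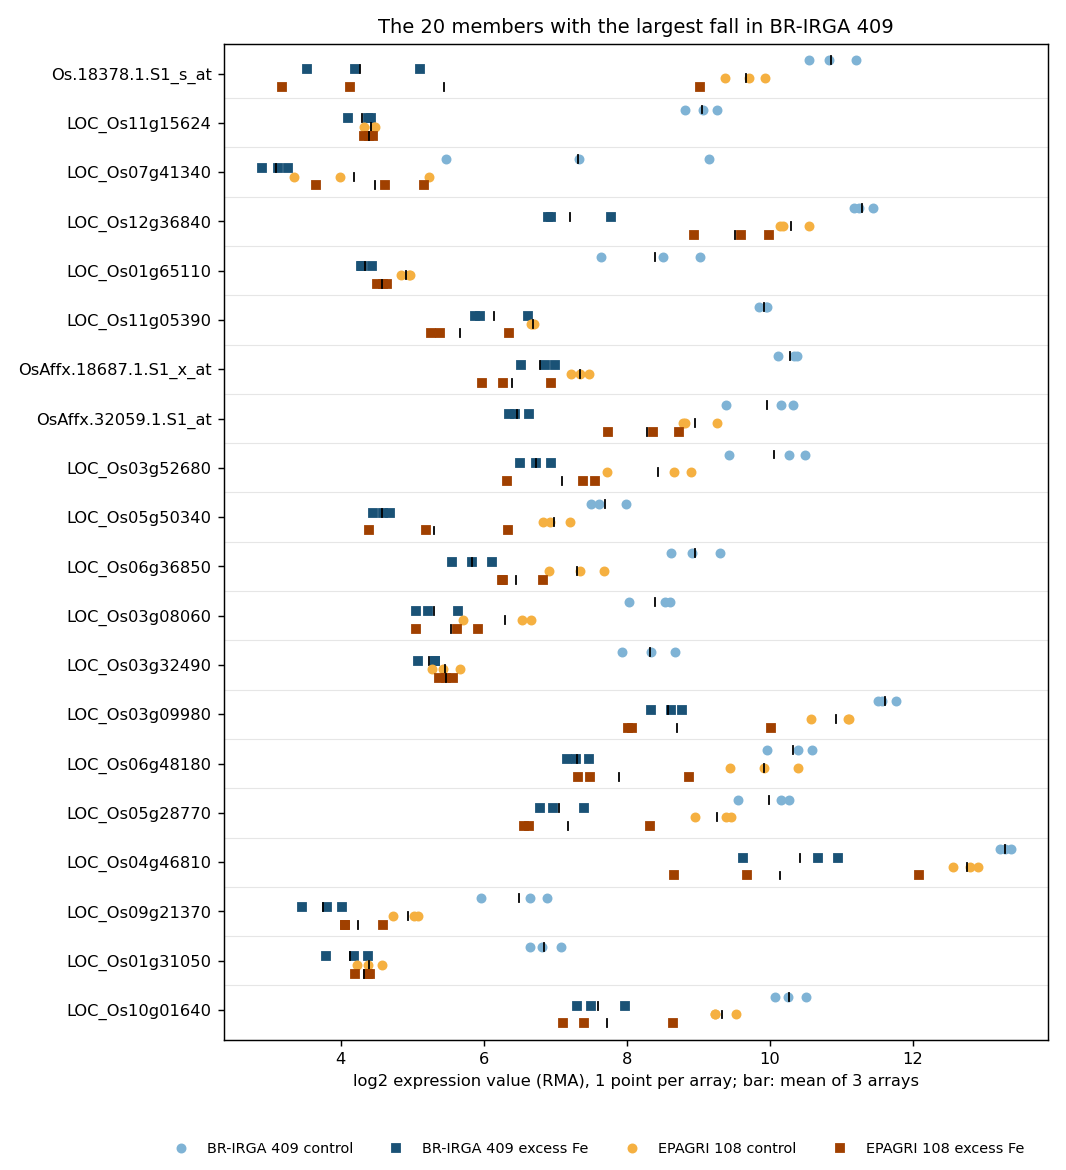
Log2 expression values of the 20 members with the largest falls in BR-IRGA 409, 1 point for each array, with the mean of 3 arrays as a bar (BR-IRGA 409 blue, EPAGRI 108 orange and brown; circles control, squares excess Fe). In the uppermost rows LOC_Os11g15624 and the dimmer probe set of LOC_Os01g65110 stood near or under 5 in both EPAGRI 108 groups, while LOC_Os12g36840 stood above 8.9 in both. The brighter probe set of LOC_Os01g65110, not shown, had means of 9.59 in EPAGRI 108 control and 8.81 under excess Fe.

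The cell wall class had 9 members for 8 genes, with falls from 2.01 to 3.01, and the median EPAGRI 108 difference was the lowest of the 10 classes (-1.50). The EPAGRI 108 excess Fe arrays lay below the controls in 8 of the 9, against 7.07% of all probe sets. All 9 had an EPAGRI 108 control level nearer to BR-IRGA 409 control. Xyloglucan endotransglucosylase/hydrolases cut and rejoin xyloglucan, a polymer that ties cellulose in the wall. LOC_Os06g48180, of this family, stood at 9.96, 10.59 and 10.39 in BR-IRGA 409 control and at 7.17, 7.29 and 7.46 under excess Fe. In EPAGRI 108 it stood at 9.45, 10.40 and 9.91 and at 8.87, 7.48 and 7.32. Both cultivars thus started and ended at similar levels, without overlap. The fall was 3.01 (8.04-fold), and the EPAGRI 108 difference was -2.03 (SE 0.35, 4.08-fold, limma adjusted p = 0.0392, and 0.0712 under the block of each cultivar). A second gene of the family, LOC_Os08g14200, had 2 members with falls of 2.56 and 2.40 and EPAGRI 108 differences of -1.50 (SE 0.40) and -1.41 (SE 0.35), with no overlap and no call.

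Glycine-rich cell wall proteins, structural proteins that are deposited in the wall, came from 3 loci close to each other by locus number. LOC_Os10g31670 stood at 10.60, 10.52 and 10.47 in BR-IRGA 409 control and at 7.41, 7.78 and 8.60 under excess Fe. EPAGRI 108 roots gave 10.26, 10.14 and 10.36 in control and 9.62, 8.27 and 8.22 under excess Fe. Neither cultivar's groups overlapped, and the EPAGRI 108 difference of -1.55 (SE 0.34) had a limma adjusted p of 0.0564. For LOC_Os10g31560 the fall was 2.14 and the EPAGRI 108 difference -1.64 (SE 0.42). For LOC_Os10g31620 they were 2.01 and -1.03 (SE 0.53), and its EPAGRI 108 arrays overlapped. LOC_Os05g38420, described both as an L-ascorbate oxidase and as similar to laccase, an enzyme class that oxidises phenolics, went from 7.53 ± 0.34 to 4.91 ± 0.15 (SD, n = 3) in BR-IRGA 409 and from 7.77 ± 0.28 to 6.26 ± 0.84 in EPAGRI 108 (-1.51, SE 0.33, limma adjusted p = 0.0518). The glucanase gene LOC_Os08g14080 was 1 of the 4 members whose EPAGRI 108 control arrays lay above those of BR-IRGA 409, at 10.48 ± 0.11 against 9.42 ± 0.15, and had an EPAGRI 108 difference of -0.56 (SE 0.21).

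**Figure D4:**
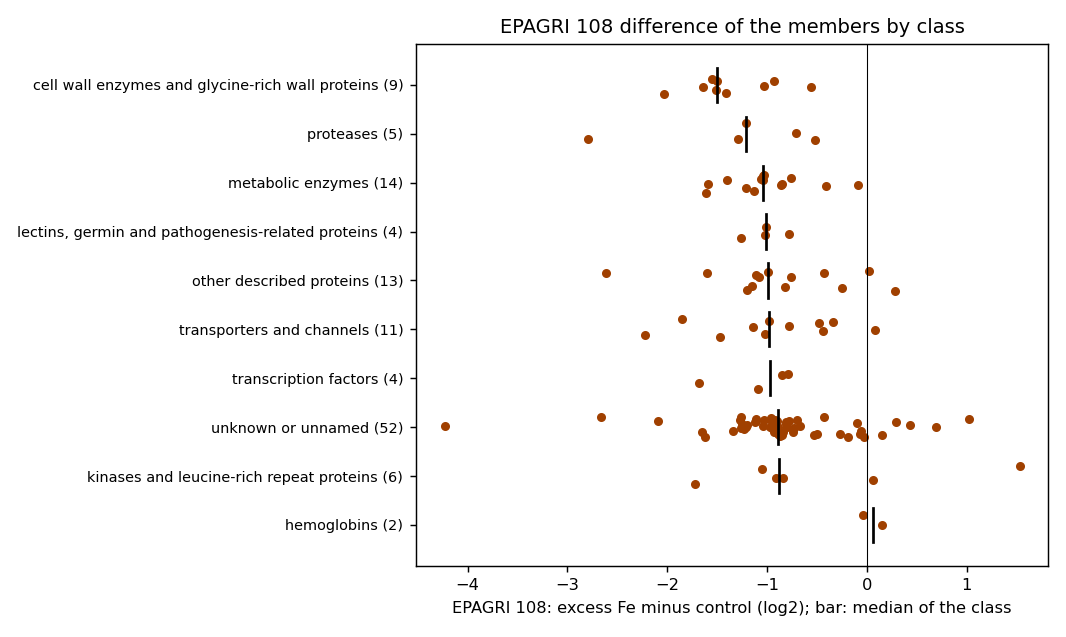
EPAGRI 108 difference between excess Fe and control (log2, x axis) of each member, by class with the number of members in brackets; bars are class medians. The median was lowest for the cell wall class (-1.50) and lay at 0.06 for the 2 hemoglobins.

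Both non-symbiotic hemoglobins were lower in BR-IRGA 409 under excess Fe and stood, in EPAGRI 108, near the lower BR-IRGA 409 level in both treatments. NSHB2 (LOC_Os03g12510) stood at 10.72, 11.74 and 12.53 in BR-IRGA 409 control and at 8.78, 9.46 and 9.65 under excess Fe. In EPAGRI 108 it stood at 9.47, 9.49 and 8.95 in control and at 9.54, 9.64 and 9.18 under excess Fe. The BR-IRGA 409 control arrays were spread widely, and the EPAGRI 108 groups overlapped (0.15, SE 0.37, limma adjusted p = 0.983). NSHB1 went from 12.07 ± 0.82 to 10.30 ± 0.24 (SD, n = 3) in BR-IRGA 409 and from 10.59 ± 0.30 to 10.55 ± 0.17 in EPAGRI 108 (-0.04, SE 0.32). Its other 2 probe sets disagreed in size, with BR-IRGA 409 differences of -0.80 and -1.12, and did not pass the rule.

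Protease genes supplied 5 members with falls from 1.95 to 2.73. The EPAGRI 108 excess Fe arrays of all 5 lay below the controls, against 7.07% of all probe sets, with 0 calls by limma and all 5 differences negative. LOC_Os09g39070 and LOC_Os09g39120, close to each other by locus number and described as thiol proteases of the SEN102 or vignain kind, which digest proteins in ageing tissue, differed in level. The first went from 12.52 ± 0.41 to 10.01 ± 0.54 (SD, n = 3) in BR-IRGA 409 and from 11.86 ± 0.22 to 10.64 ± 0.58 in EPAGRI 108. The second went from 7.47 ± 0.58 to 4.82 ± 0.32 and from 6.15 ± 0.22 to 5.63 ± 0.22. Another cysteine protease gene, LOC_Os09g21370, showed a bound of 3.54-fold for its fall and stood near the level of the non-rice probe sets in EPAGRI 108 (4.94 ± 0.18 and 4.23 ± 0.30). The subtilisin-like protease gene LOC_Os02g10520 went from 10.72 ± 0.60 to 8.29 ± 0.32 and from 10.07 ± 0.91 to 8.78 ± 0.05. LOC_Os06g16640, described as a carboxyl-terminal peptidase, was the member of the class with the largest EPAGRI 108 difference. It went from 9.32 ± 0.47 to 7.37 ± 0.69 in BR-IRGA 409 and from 11.26 ± 0.63 to 8.47 ± 1.48 in EPAGRI 108, without overlap. Its EPAGRI 108 difference was -2.79 (SE 0.60, limma adjusted p = 0.0515), beside a BR-IRGA 409 fall of 1.95.

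Genes of defence-related proteins gave 4 members, none called and all lower without overlap in EPAGRI 108, against 7.07% of all probe sets. The pathogenesis-related protein 10 gene LOC_Os12g36840, similar to PBZ1, a protein known for its induction by probenazole, stood at 11.17, 11.44 and 11.25 in BR-IRGA 409 control and at 7.77, 6.94 and 6.90 under excess Fe. The EPAGRI 108 arrays read 10.18, 10.55 and 10.14 in control and 9.98, 9.60 and 8.94 under excess Fe. The fall of 4.08 (16.9-fold) in BR-IRGA 409 stood beside an EPAGRI 108 difference of -0.78 (SE 0.27, limma adjusted p = 0.248). The salt stress-induced protein gene LOC_Os01g25280 and the GOS9 gene LOC_Os06g07300 were lower by 2.20 and 1.99 in BR-IRGA 409 and had EPAGRI 108 differences of -1.02 (SE 0.30) and -1.01 (SE 0.25). The germin-like protein gene GER1 (LOC_Os08g08980), whose family of wall-bound proteins includes oxalate oxidases and superoxide dismutases, went from 12.10 ± 0.10 to 10.25 ± 0.15 (SD, n = 3) in BR-IRGA 409 and from 12.33 ± 0.18 to 11.07 ± 0.64 in EPAGRI 108. Its adjusted p of 0.0392 (limma) came with a change under 3-fold (-1.26, SE 0.24).

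Metabolic enzymes formed the largest described class, with 14 members for 13 genes and falls from 1.62 to 3.11. LOC_Os06g36850, described as a cysteine synthase, which makes cysteine from sulfide, went from 8.95 ± 0.34 to 5.84 ± 0.28 (SD, n = 3) in BR-IRGA 409 and from 7.31 ± 0.38 to 6.45 ± 0.33 in EPAGRI 108 (-0.86, SE 0.24, limma adjusted p = 0.121). In the class, 2 members were among the 10 calls. The copper amine oxidase gene LOC_Os04g40040, of a family that oxidises amines and releases hydrogen peroxide, stood at 12.22, 12.09 and 12.34 in BR-IRGA 409 control and at 10.01, 9.85 and 9.79 under excess Fe. In EPAGRI 108 it stood at 11.78, 12.27 and 12.36 and at 11.38, 10.20 and 10.06 (-1.59, SE 0.28, limma adjusted p = 0.0392). LOC_Os10g01640, described as a histidine decarboxylase, went from 10.27 ± 0.21 to 7.59 ± 0.35 and from 9.33 ± 0.17 to 7.72 ± 0.82 (-1.61, SE 0.32, limma adjusted p = 0.0418). Under the block of each cultivar both had an adjusted p of 0.0712 (limma).

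Other enzymes of the class had EPAGRI 108 differences under 3-fold and were not called. The GDSL esterase gene LOC_Os01g11730 had a fall of 2.54 and an EPAGRI 108 difference of -1.21 (SE 0.25, limma adjusted p = 0.0478). The agmatine coumaroyltransferase gene LOC_Os03g08720, whose product joins a phenolic acid to agmatine, had 2.33 and -1.14 (SE 0.23, limma adjusted p = 0.0439). Phosphoethanolamine N-methyltransferase, which leads to choline, was represented by LOC_Os01g50030 with 2 members (falls of 1.80 and 1.74, EPAGRI 108 differences of -1.06 and -1.03), and 1-aminocyclopropane-1-carboxylate oxidase, the last step of ethylene synthesis, by LOC_Os02g53180 (1.79 and -0.85). The Rubisco small subunit gene LOC_Os12g19470, whose product belongs to green tissue, went from 9.97 ± 0.20 to 8.25 ± 0.64 (SD, n = 3) in BR-IRGA 409 and from 8.48 ± 0.54 to 7.44 ± 0.56 in EPAGRI 108. The green-tissue list moved with it only in part. The brightest RBCS probe set stood at 8.84, 9.19 and 9.50 in BR-IRGA 409 control and 7.74, 7.71 and 7.45 under excess Fe. In BR-IRGA 409 the dimmest RBCS probe sets, with readings from 2.42 to 3.50 under the non-rice probe sets, overlapped. The remaining RBCS probe sets were lower there without overlap, while both probe sets of CAB2R overlapped. Their part in this result was not tested.

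Among regulators, 3 transcription factor genes supplied 4 members. LOC_Os05g50340, described as RADIALIS, a small MYB-like protein known from snapdragon flowers, stood at 7.60, 7.98 and 7.50 in BR-IRGA 409 control and at 4.44, 4.59 and 4.69 under excess Fe. For EPAGRI 108 the values were 6.92, 7.21 and 6.83 in control and 6.33, 4.39 and 5.19 under excess Fe. The groups were apart in both cultivars, and the EPAGRI 108 difference was -1.68 (SE 0.35, limma adjusted p = 0.0478, and 0.0712 under the block of each cultivar). The CONSTANS-like gene LOC_Os02g08150 had a fall of 2.17 and an EPAGRI 108 difference of -1.09 (SE 0.26), and PCF8 (LOC_Os12g42190), of the TCP family, had 2 members with overlapping EPAGRI 108 arrays (-0.85 and -0.79).

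Of 6 genes of kinases and leucine-rich repeat proteins, CIPK3 (LOC_Os03g20380), a kinase of the family activated by calcium sensors of the calcineurin B-like type, was called in EPAGRI 108. It stood at 9.51, 8.94 and 9.16 in BR-IRGA 409 control and at 6.98, 7.16 and 6.63 under excess Fe, and at 9.08, 9.48 and 9.71 and at 8.64, 7.50 and 6.97 in EPAGRI 108 (-1.72, SE 0.34, limma adjusted p = 0.0418, and 0.0729 under the block of each cultivar). The protein kinase gene LOC_Os11g17380 went from 10.67 ± 0.05 to 8.90 ± 0.06 (SD, n = 3) in BR-IRGA 409 and from 9.99 ± 0.05 to 9.15 ± 0.52 in EPAGRI 108. For LOC_Os01g46720, another protein kinase gene, EPAGRI 108 stood at 7.57 ± 0.09 in control and 7.62 ± 0.23 under excess Fe, beside 9.75 ± 0.13 and 7.75 ± 0.18 in BR-IRGA 409.

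The receptor-like kinase gene LOC_Os01g03370 was far brighter in BR-IRGA 409 control than in EPAGRI 108 control. It stood at 10.78, 10.99 and 10.82 in BR-IRGA 409 control and at 9.19, 8.54 and 8.61 under excess Fe. Its EPAGRI 108 level was 3.54 ± 0.91 (SD, n = 3) in control, on every array under the non-rice probe sets, and 5.07 ± 0.26 under excess Fe. The measured difference was 1.53 without overlap (SE 0.34, limma adjusted p = 0.0584). With the control arrays raised to the brightest non-rice probe set, the excess Fe mean was higher by at least 0.26 on the log2 scale, and BR-IRGA 409 control stood above EPAGRI 108 control by at least 6.05.

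Further described proteins gave 13 members. LOC_Os04g46810, similar to RCc3, a protein of the root cortex, was among the brightest members, at 13.21, 13.29 and 13.37 in BR-IRGA 409 control and at 9.62, 10.67 and 10.95 under excess Fe. In EPAGRI 108 it stood at 12.56, 12.80 and 12.91 and at 12.09, 9.68 and 8.65. The EPAGRI 108 control arrays all lay below those of BR-IRGA 409 (difference of the means -0.54). The excess Fe arrays of EPAGRI 108 spread over more than 3 units, and the EPAGRI 108 difference of -2.62 (SE 0.64) had a limma adjusted p of 0.0756. The B12D protein gene LOC_Os07g41340 stood at 5.47, 7.33 and 9.15 in BR-IRGA 409 control and at 3.11, 3.26 and 2.89 under excess Fe, at least 6.29-fold lower. Its control arrays spread over almost 4 units, and in EPAGRI 108 it overlapped at a low level (5.23, 3.98 and 3.35 in control and 5.16, 4.61 and 3.65 under excess Fe). LOC_Os03g32490, a protein of unknown function with a DUF1230 domain, went from 8.32 ± 0.37 to 5.24 ± 0.14 (SD, n = 3) in BR-IRGA 409 and stood at 5.45 ± 0.20 and 5.47 ± 0.10 in EPAGRI 108. The translation factor gene LOC_Os03g08060 (elongation factor 1-alpha) had a fall of 3.09 and overlapping EPAGRI 108 arrays (-0.76, SE 0.28). The actin gene LOC_Os05g01600, of a cytoskeletal protein, went from 7.96 ± 0.16 to 6.33 ± 0.07 and from 8.04 ± 0.18 to 6.44 ± 0.86, and was called in EPAGRI 108 (-1.60, SE 0.31, limma adjusted p = 0.0392, and 0.0712 under the block of each cultivar).

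**Figure D5:**
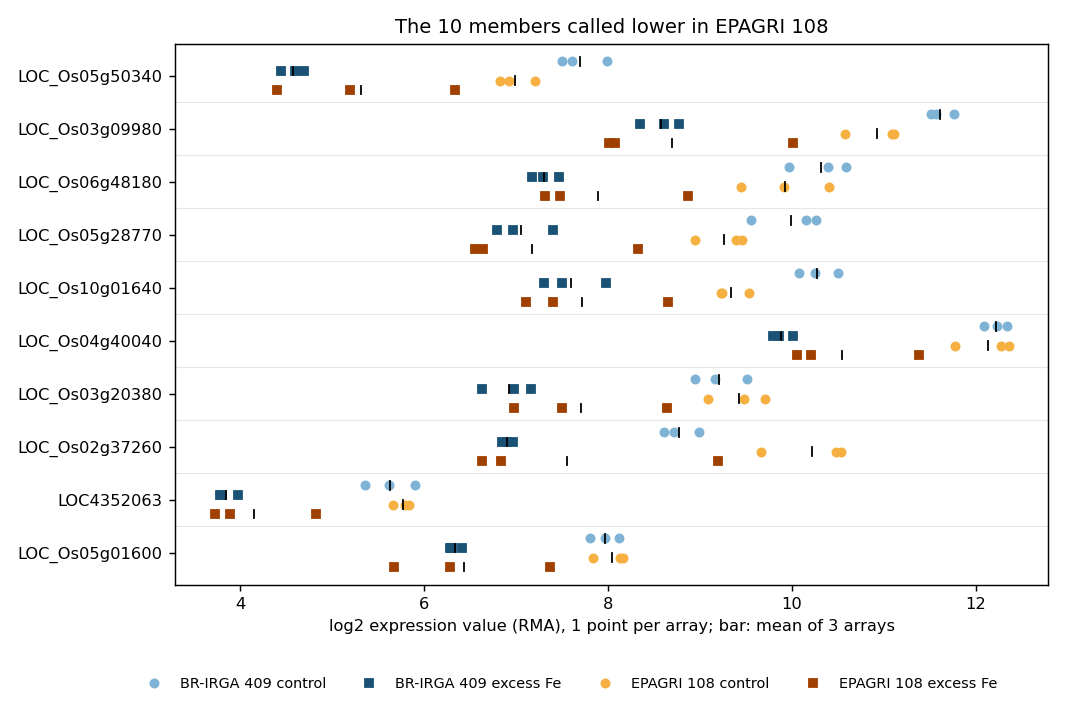
Log2 expression values of the 10 members that limma called lower in EPAGRI 108, 1 point for each array, with the mean of 3 arrays as a bar. In each row the rightmost of the 3 EPAGRI 108 excess Fe arrays is replicate 1, and the control means of the 2 cultivars lie at most 1.45 units apart (LOC_Os02g37260).

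The remaining 52 members have no function assigned to 1 gene in the sources used here: 10 carry a locus name described as unknown or hypothetical, 19 a gene identifier with no description, and 23 no gene or several genes. The 1 probe set with several genes lists the Rubisco small subunit gene LOC_Os12g19470 among them by its gene identifier, and it had a fall of 1.62. The 52 had falls from 1.60 to 6.59 and a median EPAGRI 108 difference of -0.89. In EPAGRI 108, 30 of the 52 (38 without excess Fe replicate 1) lay below the controls without overlap. With all arrays, 7.07% of all probe sets did so. The largest fall of all was that of the unassigned probe set Os.18378.1.S1_s_at, which stood at 10.55, 10.82 and 11.20 in BR-IRGA 409 control, at 3.52, 5.10 and 4.19 under excess Fe, at 9.71, 9.93 and 9.37 in EPAGRI 108 control and at 9.02, 4.12 and 3.18 under excess Fe. These levels lie close to those of the dirigent gene LOC_Os10g18870, which the rule left out, in every group (means of 10.90, 3.95, 9.72 and 5.30), and the probe set was kept only because no gene is listed for it. Its EPAGRI 108 difference of -4.23 (SE 1.08) was the largest among the members and was not called (limma adjusted p = 0.0917). The unassigned OsAffx.18687.1.S1_x_at and OsAffx.32059.1.S1_at each had a fall of 3.49, with EPAGRI 108 differences of -0.95 (SE 0.21) and -0.67 (SE 0.27). Their highest correlations with a left-out probe set over the 12 arrays were 0.988 (LOC_Os02g43410, YSL) and 0.985 (LOC_Os07g01410, peroxidase). Each is the highest of 25 correlations, and the family of both remains unknown.

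LOC_Os11g15624, of unknown function, was at 9.26, 8.81 and 9.06 in BR-IRGA 409 control and at 4.43, 4.10 and 4.38 under excess Fe, with a bound of 20.8-fold. All 6 EPAGRI 108 arrays lay under the non-rice probe sets (4.32 to 4.47), so no fold is given there. LOC_Os01g31050 showed the same order, with a bound of 4.54-fold in BR-IRGA 409 and readings between 4.20 and 4.57 in EPAGRI 108. In all, 5 members lay under that level on every EPAGRI 108 array. Other undescribed genes had negative differences in EPAGRI 108 too. LOC_Os03g52680, similar to a sorghum protein targeted to organelles, had a fall of 3.34 and an EPAGRI 108 difference of -1.34 (SE 0.37, limma adjusted p = 0.121). LOC_Os05g28770 went from 9.99 ± 0.38 to 7.05 ± 0.31 (SD, n = 3) in BR-IRGA 409, and in EPAGRI 108 it stood at 8.94, 9.45 and 9.39 in control and at 8.32, 6.56 and 6.64 under excess Fe (-2.09, SE 0.39, limma adjusted p = 0.0392).

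A further 2 undescribed genes were called in EPAGRI 108. LOC_Os02g37260 stood at 8.61, 8.98 and 8.71 in BR-IRGA 409 control and at 6.84, 6.90 and 6.96 under excess Fe, and at 9.66, 10.48 and 10.53 and at 9.20, 6.63 and 6.84 in EPAGRI 108. It was higher in EPAGRI 108 control than in BR-IRGA 409 control, and its EPAGRI 108 difference was -2.66 (SE 0.51, 6.34-fold, limma adjusted p = 0.0392). LOC4352063 went from 5.62 ± 0.27 to 3.85 ± 0.11 (SD, n = 3) in BR-IRGA 409, at least 1.94-fold lower. In EPAGRI 108 it went from 5.76 ± 0.09 to 4.15 ± 0.59 (-1.62, SE 0.23, limma adjusted p = 0.0355). Its EPAGRI 108 excess Fe arrays read 4.825, 3.73 and 3.89, with replicates 2 and 3 under the non-rice probe sets (4.51 to 5.01). No bound was computed for this EPAGRI 108 difference, which rests in part on readings under that level. Under the block of each cultivar the adjusted p of these 3 genes lay between 0.0712 and 0.0729 (limma).

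Position and probe design were shared by some members. Among the 68 members' loci with a locus number, 7 neighbouring pairs lay within 150 of each other in that number, which counts up along the chromosome. They form the 4 groups LOC_Os03g09880 to LOC_Os03g09980, LOC_Os08g14080 to LOC_Os08g14200, LOC_Os09g39070 to LOC_Os09g39120 and LOC_Os10g31560 to LOC_Os10g31670, which include the 2 sulfate transporter genes, 2 protease genes and 3 glycine-rich protein genes. In 24 of the 120 members the name of the probe set ends in _s_at, _x_at or _a_at, which marks probes that can match several transcripts or genes, so values of close relatives may be mixed there.

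Families of members that could be listed through gene symbols were described over 99 genes, each by its probe set with the highest mean. The genes of a list were taken by symbol and not by how they moved, but the families were picked because members belong to them. Limma called 6 lower and 6 higher in BR-IRGA 409 (0.25% and 1.1% of all probe sets were called lower and higher). In EPAGRI 108 it called 2 lower and 2 higher (0.0227% and 0.283% of all probe sets). None of these EPAGRI 108 calls held under the block of each cultivar (adjusted p = 0.0712 to 0.0729, limma). The 6 genes called lower in BR-IRGA 409 are members or, for Nramp1, left out by family. That count thus follows from the rule and is no result beside the 0.25%. Of 24 CIPK kinases, CIPK3 was called lower and CIPK23 higher (2.56, limma adjusted p = 7.24e-05) in BR-IRGA 409. Of 22 HAK potassium transporters, HAK4 was called lower and 3 higher, among them HAK16 (3.78). Of 27 beta-glucosidases, BGLU6 was called lower and BGLU22 higher, and BGLU30, which is no member, was called lower in EPAGRI 108 (-1.75, limma adjusted p = 0.0392). GER1 was the 1 called gene of 9 germin-like genes, and of 9 laccase genes none was called lower and LAC19 was called higher. The member LOC_Os05g38420, described as similar to laccase and with a fall of 2.62, has no symbol and is not in that list. Of 6 NRAMP genes, Nramp1, which the rule left out, was called lower. The gene listed as NRAMP4 entered this list by a brighter probe set than its 2 members, with a BR-IRGA 409 difference of -1.49, under 3-fold. The median BR-IRGA 409 difference of these lists lay between -0.26 and 0.10, except for the NRAMP list (-0.71) and the 2 hemoglobins (-1.74). The other families of the members could be named only through the study's tables, whose genes were selected on these same arrays, and no family count is given for them.

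The 25 fallers left out by family had a larger median fall (3.31) and a similar median EPAGRI 108 difference (-0.93). In EPAGRI 108, 17 of the 25 were lower without overlap, against 7.07% of all probe sets, and 2 were called lower, against 0.0227%. Of the 13 probe sets called lower in EPAGRI 108, 10 were thus members, 2 were left out by family and 1 was neither. The difference between members and left-out probe sets was not tested.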

How the data were processed

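The values are the authors' deposited log2 values, computed by RMA (background correction, a common distribution for all arrays, 1 value per probe set). The methods describe a fixed quantity added to stabilise the variance, of unstated size. The deposited values do not hold an addition of 16, since array minima were 1.51 to 1.74, lower than 16 would allow, and whether they hold another was not tested. The 123 controls among 57381 probe sets were removed.

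A limma model (3.58.1, R 4.3.3) with 4 group means took all 12 arrays, with Benjamini-Hochberg adjustment over 57258 probe sets. A call needed an adjusted p under 0.05 and 3-fold. The fit was tested on simulated data. Tables and figures used pandas 2.3.3, numpy and matplotlib. Locus names and descriptions came from the study's tables, other names from RefSeq and platform annotation: 72 members have a locus, 26 only a RefSeq gene and 22 neither. Fold changes and p-values in those tables were not used. Promoter and protein sequences were not analysed here.

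The members and lists were chosen with earlier results of these data known. Named are the 25 largest falls, members called in EPAGRI 108, up to 4 of each class, members opposite in EPAGRI 108 and those at the threshold. Further members were named after their values were seen, to complete classes. Families were recognised by words in descriptions and symbols.

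The labels call the arrays biological replicates and state no pairing. Deviations of same-numbered arrays correlated at 0.490, 0.209 and 0.108 in BR-IRGA 409 and at 0.454, 0.302 and 0.151 in EPAGRI 108, all over the threshold of 0.1, so a block of the number within each cultivar is given beside the calls it ends. Alternatives were the methods' t-test, blocks, scaling, a filter on dim probe sets and leaving out arrays. Exchanged EPAGRI 108 labels, further counts without excess Fe replicate 1 and bounds of dim controls were added after seeing the data.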

Additional observations from a re-analysis of the deposited data

Results flagged for a closer look

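In 4 members the EPAGRI 108 readings were higher under excess Fe without overlap, opposite to BR-IRGA 409, where 6.34% of all probe sets were higher without overlap. The difference between the cultivars was not tested, because the rule used the BR-IRGA 409 values. The kinase gene LOC_Os01g03370 differed by 1.53 in EPAGRI 108, and the unassigned OsAffx.10893.1.S1_x_at, whose probe set name shares its number with that of the kinase gene, by 0.29. Both lay under the non-rice probe sets on every EPAGRI 108 control array, and with those arrays raised to that level the differences were at least 0.26 and 0.02. LOC4333962 differed by 0.69, from 5.35, 5.38 and 4.12 in control to 5.51, 5.89 and 5.52 under excess Fe. The unassigned OsAffx.16673.1.S1_s_at differed by 0.43, from 9.05, 9.05 and 8.51 to 9.16, 9.43 and 9.31. None of the 4 was called by limma (adjusted p from 0.0584 to 0.895). Of the 2 members higher at an unadjusted p under 0.05, LOC_Os01g03370 is among these 4. The other, LOC4342314, had overlapping arrays.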

How the results depend on the processing

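The 120 members became 57 at a threshold of 2, and 111 to 155 without any 1 BR-IRGA 409 array. The 10 calls in EPAGRI 108 became 0 with the EPAGRI 108 arrays alone, with the methods' t-test after Benjamini-Hochberg adjustment, with the replicate block of each cultivar and with 16 added to linear values, and 23 with no fold threshold. The methods' t-test without adjustment gave 12 and the replicate block over all 4 groups 11. Leaving out 1 array gave 0 to 24 calls: 24 without EPAGRI 108 excess Fe replicate 1, 18 without EPAGRI 108 control replicate 1, and 0 without any other array, BR-IRGA 409 arrays included. The 77 members without overlap became 56 of the 81 members left with 16 added, 75 of 117 without dim probe sets and 78 to 93 without any 1 EPAGRI 108 array. Groups separate more easily with an array fewer, and no share over all probe sets was computed there. The 6 family genes called lower became 5 or 6. The cause of these shifts was not tested. Values near 0 turned sign when 1 array was left out, with these ranges over the arrays: LOC_Os11g15624 -0.076 to 0.0048, LOC_Os07g41340 -0.13 to 0.81, LOC_Os03g32490 -0.068 to 0.13, LOC_Os01g31050 -0.14 to 0.029, LOC_Os03g12510 (NSHB2) -0.023 to 0.29, LOC_Os01g46720 -0.056 to 0.17 and NSHB1 -0.21 to 0.081. Among members named after their values were seen, LOC_Os03g09970 ran from -0.063 to 0.20 and LOC4345815 from -1.84 to 0.35. The number of arrays limits the precision, and no depth applies to arrays.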

Other observations

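2 members outside the comparisons above had uneven replicates. LOC4345815, which has no description, stood at 4.87, 8.07 and 7.48 in BR-IRGA 409 control and at 9.12, 4.74 and 6.91 in EPAGRI 108 control. LOC4342314, also without a description, stood at 5.44, 3.97 and 4.11 in EPAGRI 108 control and at 5.43, 5.85 and 5.30 under excess Fe, a difference of 1.02 (SE 0.33, limma adjusted p = 0.216) with overlapping arrays. Both were chosen after their values were seen.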
